A study of Mus musculus with 24 samples.

Results

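The CCN family of matricellular genes was followed across 24 RNA-Seq libraries of NIH 3T3, a fibroblast line that was immortalized from mouse embryos. The 5 genes Ccn1, Ccn2, Ccn3, Ccn4 and Ccn5 (formerly Cyr61, Ctgf, Nov, Wisp1 and Wisp2) were found by their Ensembl identifiers among 39017 in the count files. They are the whole gene family, and the rule that defines them uses no measured value, although earlier results of these data were known when the family was picked for study. All 5 passed the filter on low counts, a mean of at least 5 counts over the libraries, which left 14361 genes to be tested.

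Cells were stably transduced with an empty vector or with 1 of 6 constructs, and there were 3 libraries in each of 8 groups. EV and EVsub carry the empty vector. TAZ4SA and YAP5SA are full-length TAZ and YAP in which alanines stand in for serines that the LATS kinases phosphorylate, and both are therefore hyperactive. TAZ-CAMTA1 and YAP-TFE3 are the fusion proteins of epithelioid hemangioendothelioma, and CAMTA1 and TFE3 are the full-length forms of their C terminal partners. Most lines had been confluent for 48 h when collected. The sources differ on the exceptions. EVsub is labelled sub-confluent in its titles, while its growth protocol excepts CAMTA1 alone, and the study's methods except lines containing CAMTA1, without saying whether TAZ-CAMTA1 is meant. If it is, density and construct cannot be told apart in the contrasts of TAZ-CAMTA1. CAMTA1 was compared here with EVsub and the other proteins with EV. Where density is named for EVsub it rests on that label. By the study's methods the constructs were Flag-tagged and retroviral, every line went through drug selection, and the libraries of a group are biological triplicates of such pooled lines. Overexpression in a fibroblast line thus stands in for a tumor of vascular type.

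CCN proteins are secreted into the extracellular matrix, where they signal rather than build structure. They share modules that resemble insulin-like growth factor binding proteins, von Willebrand factor type C repeats and thrombospondin repeats, and most end in a cystine knot domain, which CCN5 lacks. Cells read them through integrins, heparan sulfate proteoglycans and LRP receptors. CCN1 and CCN2 are classical targets of YAP and TAZ, which bind DNA through TEAD factors, whereas CCN4 is named for its induction by Wnt1 and CCN3 is often regulated in the opposite direction to CCN2.

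In mm10 coordinates Ccn1 (ENSMUSG00000028195) lies on the minus strand at chr3:145646976-145649981, and Ccn2 (ENSMUSG00000019997) lies on the plus strand at chr10:24595442-24598683. Ccn3 (ENSMUSG00000037362) at chr15:54745702-54754039 and Ccn4 (ENSMUSG00000005124) at chr15:66891320-66923201 share a chromosome, both on the plus strand, and Ccn5 (ENSMUSG00000027656) is on the plus strand at chr2:163820861-163833146. All are protein coding, with merged exon lengths of 2019, 2861, 2869, 5565 and 1924 bases from Ccn1 to Ccn5. Exons of Ccn2 overlap those of the antisense gene Gm15270 over 665 bases. Gm15270 had 0 to 10 counts in a library, at most 2.14% of the Ccn2 count, and since the handling of strand is not given in the sources used here, reads of the pair cannot be told apart.

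The promoter of Ccn1, the gene with the highest level per kilobase of the family in the cells with either hyperactive protein or either fusion protein, is the one of the family in the promoter table used here. The sequence is from RefSeq (GRCm38.p6, chr3:145649936-145650235, minus strand) and runs over 300 bases from upstream of the gene's start into its first exon. Capitals mark the 1 match to the TEAD motif CATTCC.
Ccn1 promoter: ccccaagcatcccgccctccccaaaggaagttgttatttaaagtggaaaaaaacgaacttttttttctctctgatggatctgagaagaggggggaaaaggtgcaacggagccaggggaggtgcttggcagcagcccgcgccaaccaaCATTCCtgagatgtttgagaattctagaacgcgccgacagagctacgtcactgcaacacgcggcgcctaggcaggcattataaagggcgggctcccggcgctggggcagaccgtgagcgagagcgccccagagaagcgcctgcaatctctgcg
The match runs from base -103 to base -98 relative to the gene's start in RefSeq and reads in the direction of the gene. That start differs by a few bases from the one in the coordinates given above. Both strands were searched, and 14.7% of the 32851 promoters of this length in the RefSeq table hold the motif. No match was found in this window for the AP-1 motif TGANTCA (in 7.81% of promoters), the E-boxes CACGTG (7.15%) and CATGTG (14.2%) bound by TFE3 and its relatives, or the SRF CArG box (1.63%). A match to letters is a description and does not show binding.

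Libraries held between 16471181 and 30132586 counts (median 22298975). Values are given as CPM, the count of a gene scaled to a common library size, after TMM normalization, an edgeR method that corrects for differences in library composition. Its factors ran from 0.773 to 0.829 in YAP5SA and from 0.810 to 1.04 in TAZ4SA, and from 1.00 to 1.09 in the other groups. Fibroblast markers were abundant in every library (summed 10363 to 34472 CPM over 8 genes), although Fap had between 1 and 305 counts. The sum of 4 epithelial markers stayed at or below 1.05 CPM, and Epcam had 0 counts throughout. The sum of 4 leukocyte markers was 0.0422 to 0.143 CPM in EV, 0.674 to 2.63 CPM in TAZ4SA and 0.950 to 1.52 CPM in YAP5SA, and at most 0.200 CPM in the other groups. The sum of 4 endothelial markers was 0.127 to 0.221 CPM in EV, 8.31 to 11.9 CPM in TAZ4SA, 7.03 to 7.79 CPM in YAP5SA, 1.62 to 2.61 CPM in TAZ-CAMTA1 and 1.07 to 1.70 CPM in YAP-TFE3. It was 0.804 to 1.15 CPM in TFE3, and in EVsub (0.137 to 0.178 CPM) and CAMTA1 (0.155 to 0.288 CPM) it overlapped with EV. Both sums were thus higher in the hyperactive proteins than in EV, as several CCN genes described next also differed there, and their part in those differences was not tested. In these bulk samples, fewer cells expressing a gene and less RNA per cell cannot be told apart.

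The make-up of the family differed among the groups, which is given as a description without a test. Per kilobase of exon, where levels of different genes can be compared, confluent empty vector cells had Ccn5 and Ccn1 as their main members. Ccn5 made up 39.0% ± 17.3 (SD, n = 3) of the summed level in EV, Ccn1 30.6% ± 9.01, Ccn4 21.9% ± 6.98, Ccn2 6.71% ± 1.36 and Ccn3 1.90% ± 0.394. In YAP5SA Ccn1 alone made up 86.0% ± 1.77, while Ccn4 was reduced to 0.280% ± 0.0546 of the sum. TAZ-CAMTA1 cells were also dominated by Ccn1 (73.7% ± 6.78). YAP-TFE3 cells combined Ccn1 (53.9% ± 6.997) with Ccn4 (26.4% ± 5.24), and TAZ4SA cells combined Ccn1 (53.5% ± 11.8) with Ccn2 (26.4% ± 9.60). TFE3 was the group in which Ccn3 took its highest share, 7.29% ± 0.363. The summed level was 93.0 ± 17.0 CPM per kb in EV and 86.0 ± 0.850 in TFE3, and it reached 1229 ± 235 CPM per kb in YAP5SA.

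**Figure D1:**
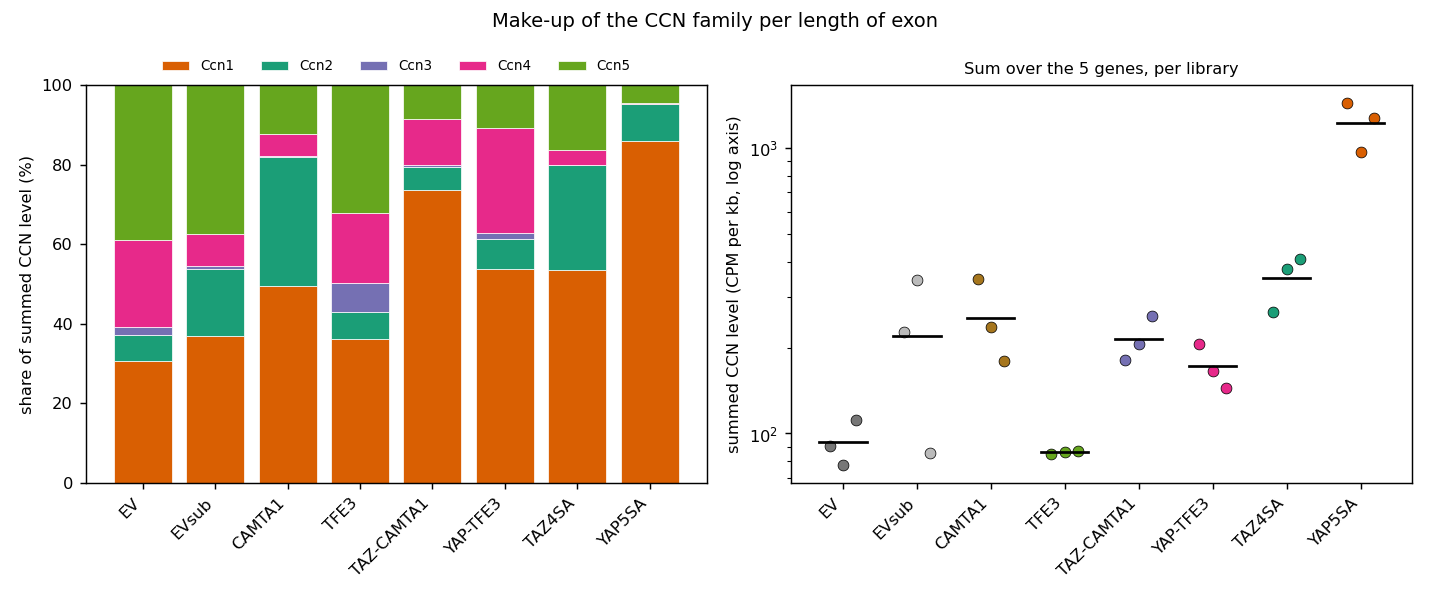
Left, stacked bars give the mean share of each CCN gene in the summed family level (CPM per kb of exon, %) in each of the 8 groups. Right, points give the summed level in each library on a log axis with a line at the mean of 3 libraries, and the YAP5SA libraries (974 to 1438 CPM per kb) lie above all others.

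CCN1 is an early-response ligand of integrins that drives migration and angiogenesis. Ccn1 was higher than in EV with both hyperactive proteins and with both fusion proteins, most of all with YAP5SA, and it was not called with TFE3. The 3 EV libraries had 42.9, 63.8 and 61.5 CPM in the order of their replicate numbers, and the TFE3 libraries had 62.3, 62.5 and 63.8 CPM. TAZ4SA libraries had 299, 489.7 and 337 CPM and TAZ-CAMTA1 libraries 246, 303 and 421 CPM. YAP-TFE3 gave 204, 206 and 148 CPM. YAP5SA gave 2461, 1731 and 2191 CPM, so that every library with a hyperactive or fusion protein lay above every EV library and YAP5SA lay above all other groups. Ranked per kilobase among 14208 genes, Ccn1 moved from place 1683 in EV to place 55 in YAP5SA.

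The log2 fold change of Ccn1 against EV was 5.25 ± 0.43 (SE) with YAP5SA (edgeR quasi-likelihood test, Benjamini-Hochberg adjusted p = 5.36e-10), or 37.9-fold. TAZ4SA gave 2.74 ± 0.38 (adjusted p = 3.23e-06) and TAZ-CAMTA1 gave 2.53 ± 0.38 (adjusted p = 4.21e-05). These rises were close in size, and the direct contrast of TAZ-CAMTA1 with TAZ4SA was -0.21 on the log2 scale with a 95% interval from -0.96 to 0.53 (adjusted p = 0.633). YAP-TFE3 gave the smallest called rise of these proteins, 1.73 ± 0.37 (adjusted p = 0.00206). Against YAP5SA the log2 fold change of YAP-TFE3 was -3.52 ± 0.39 (adjusted p = 6.64e-08). Between the fusion proteins the log2 fold change was 0.80 (95% interval 0.05 to 1.54, adjusted p = 0.162), with no overlap of the libraries and TAZ-CAMTA1 the higher. It passed without the filter on low counts (adjusted p = 0.0133) and in a fit of these groups alone (0.0203), and under no other alternative. TAZ4SA was also below YAP5SA, by a log2 fold change of -2.50 ± 0.38 (adjusted p = 2.78e-05).

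EVsub also had more Ccn1 than EV, with a wide spread. EVsub libraries had 224, 203 and 57.6 CPM, and the CAMTA1 libraries had 419.9, 202 and 167 CPM. EVsub replicate 3 lay within the EV range while the other EVsub libraries lay well above it. The log2 fold change of EVsub over EV was 1.53 ± 0.37 (adjusted p = 0.00482), rising to 1.93 (adjusted p = 6.44e-05) without EVsub replicate 3 and losing its call in a fit of these groups alone (adjusted p = 0.0522). CAMTA1 against EVsub gave 0.70 ± 0.36 (adjusted p = 0.304), and 0.30 without EVsub replicate 3. In order of mean level, YAP5SA did not overlap with the next group, and each later pair of neighbours, TAZ4SA, TAZ-CAMTA1, CAMTA1, YAP-TFE3, EVsub, TFE3 and EV, overlapped.

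**Figure D2:**
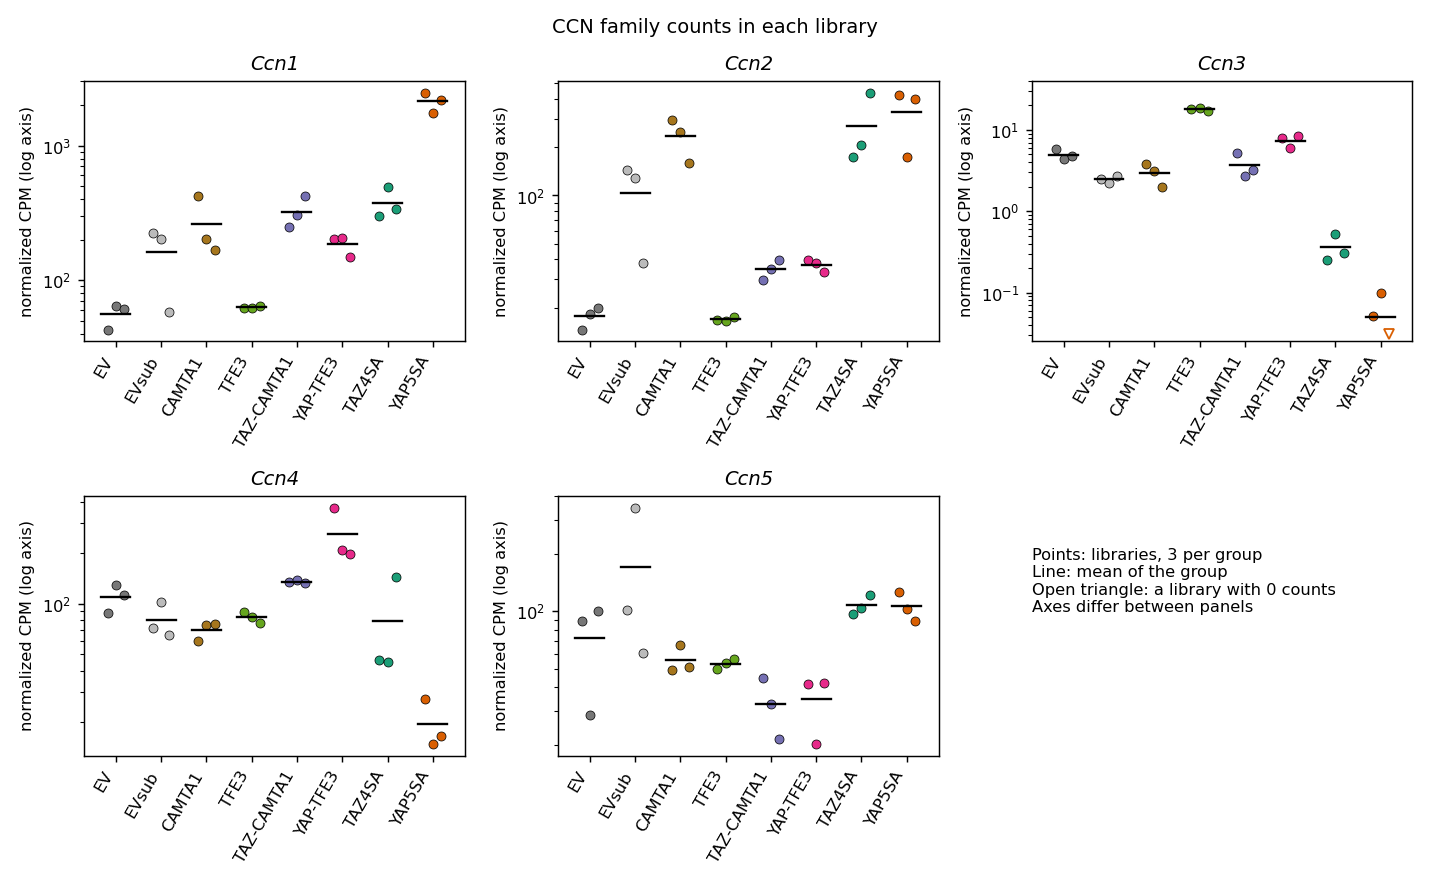
Normalized CPM (log axes, which differ between panels) of each CCN gene in each library of the 8 groups, with a line at the mean of 3 libraries and an open triangle for the YAP5SA library with 0 counts of Ccn3. Ccn1 is highest in YAP5SA, Ccn3 in TFE3 and Ccn4 in YAP-TFE3.

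CCN2 is the profibrotic member of the family, a binder of TGF-beta and a widely used readout of YAP and TAZ activity. Ccn2 rose with both hyperactive proteins and in EVsub, and it passed the test with neither fusion protein. EV had 14.6, 18.3 and 19.9 CPM and TFE3 had 16.7, 16.5 and 17.4 CPM, and these groups overlapped. TAZ4SA had 174, 208 and 437 CPM and YAP5SA had 426, 174 and 399 CPM, all above every EV library but spread widely within each group. The fusion proteins sat in between, with 29.9, 34.9 and 39.8 CPM in TAZ-CAMTA1 and 39.5, 37.7 and 33.1 CPM in YAP-TFE3. Every fusion library was thus above every EV library and below every library of a hyperactive protein.

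Against EV, the log2 fold change of Ccn2 was 3.96 ± 0.43 with TAZ4SA (adjusted p = 9.91e-08) and 4.24 ± 0.43 with YAP5SA (adjusted p = 1.47e-08). The difference between those proteins was -0.29 with a 95% interval from -1.06 to 0.49 (adjusted p = 0.562), although Ccn1 differed between them. TAZ-CAMTA1 gave 0.99 ± 0.39 (adjusted p = 0.0781) and YAP-TFE3 1.06 ± 0.39 (adjusted p = 0.0728). Both values passed the threshold without the filter on low counts (adjusted p = 0.00162 and 0.000746) and in fits of the groups compared alone (0.00117 and 0.00206). Under every other alternative both stayed uncalled, with adjusted p up to 0.229 and 0.221 when 1 library was left out. Directly compared, TAZ-CAMTA1 was lower than TAZ4SA (log2 fold change -2.97 ± 0.40, adjusted p = 3.21e-06), and YAP-TFE3 was lower than YAP5SA (-3.18 ± 0.41, adjusted p = 4.62e-07). The fusion proteins differed from each other by -0.08, with a 95% interval from -0.87 to 0.72 (adjusted p = 0.932).

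In EVsub and CAMTA1 the mean level of Ccn2 lay between those of the fusion proteins and the hyperactive proteins. EVsub had 143, 129 and 37.7 CPM and CAMTA1 had 294, 249 and 159 CPM. All of these lay above the EV libraries, with EVsub replicate 3 again the lowest. The log2 fold change of EVsub over EV was 2.56 ± 0.40 (adjusted p = 0.000129), and 2.95 without EVsub replicate 3. CAMTA1 lay above EVsub in every library, but the difference of 1.18 ± 0.38 on the log2 scale was not called (adjusted p = 0.106). It was 0.78 without EVsub replicate 3 (adjusted p = 0.234), and it passed without EVsub replicate 1 (1.49, adjusted p = 0.0484) and without the filter on low counts (0.00049). In order of mean level, neighbours did not overlap between CAMTA1 and EVsub or between TAZ-CAMTA1 and EV, and every other pair of neighbours in the order YAP5SA, TAZ4SA, CAMTA1, EVsub, YAP-TFE3, TAZ-CAMTA1, EV, TFE3 overlapped.

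The balance between Ccn1 and Ccn2 was not the same in all groups. The log2 ratio of Ccn1 to Ccn2, per kilobase, was 2.06, 2.31 and 2.13 in the EV libraries. With TAZ-CAMTA1 it was 3.55, 3.62 and 3.91, and with TAZ4SA it was 1.29, 1.74 and 0.13. All TAZ-CAMTA1 libraries were thus above EV and all TAZ4SA libraries below it. YAP5SA (3.03, 3.82 and 2.96) and YAP-TFE3 (2.87, 2.95 and 2.66) both lay on the Ccn1 side of EV. TFE3 (2.40, 2.43 and 2.38) also lay above every EV library, by less. The EVsub libraries had 1.14, 1.16 and 1.11, the smallest spread of any group (SD 0.0226), even though replicate 3 had much less of each gene. CAMTA1 had 1.02, 0.20 and 0.57. These ratios are a description, and no test of them was run.

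**Figure D3:**
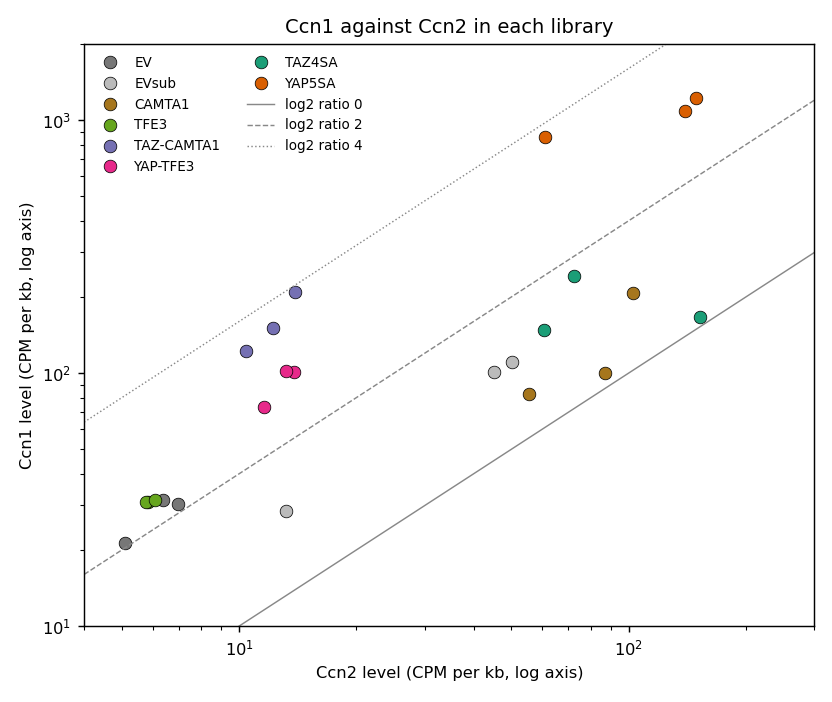
Ccn1 against Ccn2 in each library, both in CPM per kb on log axes, colored by group, with lines at log2 ratios of 0, 2 and 4. TAZ-CAMTA1 libraries lie near the upper line (3.55 to 3.91) and TAZ4SA, EVsub and CAMTA1 libraries lie below the middle line (0.13 to 1.74).

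CCN3 is a growth-restraining member that opposes CCN2 in many settings. Ccn3 was the least abundant CCN gene in every group but TFE3, where it was higher than in any other group, and it nearly vanished with YAP5SA. EV libraries had 5.87, 4.34 and 4.73 CPM and TFE3 libraries had 18.1, 18.7 and 17.1 CPM, without overlap. TAZ4SA libraries had 0.248, 0.525 and 0.308 CPM, which rest on 5, 7 and 7 counts. In YAP5SA the counts were 1, 2 and 0 (0.0513, 0.0981 and 0 CPM), and a count of 0 allows up to 3.

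TFE3 raised Ccn3 by 1.85 ± 0.24 on the log2 scale, or 3.60-fold (adjusted p = 5.41e-05). It was the only CCN gene called with TFE3, and at place 65 of 14361 its fold change was among the highest in that comparison. TAZ4SA lowered Ccn3, with a log2 fold change of -3.85 ± 0.34 (adjusted p = 6.75e-09). For YAP5SA the summed counts were 3 against 337 in EV, a ratio of 93.0 in favor of EV with an exact 95% interval from 31.5 to 453, which covers counting error only (edgeR adjusted p = 9.40e-11). TAZ4SA exceeded YAP5SA by a ratio of 6.27 (exact 95% interval 1.84 to 33.1) on 19 against 3 counts, called at an edgeR adjusted p of 0.0074 but not in a fit of these groups alone (0.0510).

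Neither fusion protein was called against EV for Ccn3. TAZ-CAMTA1 had 5.18, 2.75 and 3.23 CPM and YAP-TFE3 had 7.87, 5.99 and 8.36 CPM. All 3 YAP-TFE3 libraries were above all EV libraries, while those of TAZ-CAMTA1 overlapped with EV. The log2 fold changes against EV were -0.42 ± 0.24 (adjusted p = 0.235) and 0.57 ± 0.24 (adjusted p = 0.115). TAZ-CAMTA1 reached the threshold without its replicate 1 (adjusted p = 0.0452). Against the hyperactive proteins both were higher, TAZ-CAMTA1 over TAZ4SA by 3.43 ± 0.35 (adjusted p = 7.92e-08) and YAP-TFE3 over YAP5SA by a count ratio of 135 (exact 95% interval 45.9 to 656, edgeR adjusted p = 2.64e-11). Between the fusion proteins, TAZ-CAMTA1 was lower, with a log2 fold change of -0.99 ± 0.24 (adjusted p = 0.00905), a call that was lost without TAZ-CAMTA1 replicate 2 (adjusted p = 0.0733) or replicate 3 (0.0564).

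Ccn3 was lower in EVsub than in EV. EVsub libraries had 2.46, 2.24 and 2.75 CPM, all below EV, and CAMTA1 had 3.86, 3.09 and 2.01 CPM. The log2 fold change of EVsub over EV was -1.01 ± 0.25 (adjusted p = 0.00596). Here EVsub replicate 3 did not stand apart, and without it the value was -1.09. CAMTA1 overlapped with EVsub (0.26 ± 0.26, adjusted p = 0.608). Neighbours in the order of mean level, from TFE3 over YAP-TFE3, EV, TAZ-CAMTA1, CAMTA1, EVsub and TAZ4SA to YAP5SA, overlapped only from EV to EVsub.

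CCN4 is a secreted product of Wnt signaling that binds decorin and biglycan in the matrix. Ccn4 fell with YAP5SA and rose with YAP-TFE3. EV libraries had 88.1, 129 and 112 CPM. YAP5SA libraries had 27.2, 14.7 and 16.4 CPM, below every other library, and YAP-TFE3 libraries had 371, 207 and 196 CPM, above every other library. The log2 fold change against EV was -2.50 ± 0.35 with YAP5SA (adjusted p = 1.72e-06) and 1.23 ± 0.33 with YAP-TFE3 (adjusted p = 0.0125). The YAP-TFE3 call was lost without EV replicate 1 (adjusted p = 0.0704) or YAP-TFE3 replicate 1 (0.161). YAP-TFE3 exceeded YAP5SA by 3.73 ± 0.37 on the log2 scale (adjusted p = 1.12e-08), or 13.2-fold.

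The libraries with TAZ constructs were less uniform for Ccn4. TAZ4SA had 46.3, 45.05 and 145 CPM, and replicate 3 lay above all EV libraries while the others lay below them. Its log2 fold change against EV was -0.48 ± 0.33 (adjusted p = 0.225), which became -1.26 (adjusted p = 0.00026) without TAZ4SA replicate 3. TAZ-CAMTA1 had 135, 139 and 132 CPM, slightly above all EV libraries, with a log2 fold change of 0.30 ± 0.33 (adjusted p = 0.562). TAZ-CAMTA1 against TAZ4SA gave 0.77 ± 0.33 (adjusted p = 0.0514). It passed with DESeq2 size factors in edgeR (adjusted p = 0.0492), with at least 10 counts in every library (0.0488) and without the filter on low counts (0.0016). Without TAZ4SA replicate 3 it was 1.56 (adjusted p = 3.15e-05). TAZ4SA was above YAP5SA by 2.02 ± 0.35 (adjusted p = 0.000111), and by 1.23 without that library. That same replicate also had the highest Ccn2 of its group, and its TMM factor was 1.04 where those of replicates 1 and 2 were 0.930 and 0.810.

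In the other groups Ccn4 was not called. TFE3 had 89.5, 83.5 and 77.2 CPM (log2 fold change -0.40 ± 0.33, adjusted p = 0.678) and EVsub had 71.6, 102 and 65.4 CPM (-0.46 ± 0.33, adjusted p = 0.349). CAMTA1 had 59.8, 74.2 and 75.3 CPM, which overlapped with EVsub (-0.19 ± 0.33, adjusted p = 0.780). The fusion proteins differed by -0.93 ± 0.33, lower in TAZ-CAMTA1, without passing the test (adjusted p = 0.0696), although the libraries did not overlap. The value passed without the filter on low counts (adjusted p = 0.00111) and in a fit of these groups alone (0.0158), and under no other alternative. In order of mean level, YAP-TFE3, TAZ-CAMTA1 and EV were separate from each other, as was YAP5SA at the end, and the neighbours from EV over TFE3, EVsub and TAZ4SA to CAMTA1 overlapped.

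CCN5 is the short member without the cystine knot domain and is known as a growth arrest gene of smooth muscle. Ccn5 was not called in any comparison with a vector control, and the empty vector libraries themselves were widely spread. EV had 88.5, 28.6 and 100.04 CPM and EVsub had 101, 347 and 60.3 CPM. One library stood apart in each group, replicate 2, low in EV and high in EVsub. Libraries with a hyperactive protein or TFE3 lay closer together, with 96.7, 104 and 122 CPM in TAZ4SA, 126, 103 and 89.1 CPM in YAP5SA and 49.8, 53.9 and 56.0 CPM in TFE3. The fusion proteins had the lowest means of the 8 groups, with 44.7, 32.6 and 21.6 CPM in TAZ-CAMTA1 and 41.8, 20.2 and 42.0 CPM in YAP-TFE3. CAMTA1 had 49.4, 66.7 and 50.9 CPM.

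Against EV the log2 fold change of Ccn5 was -1.14 ± 0.46 with TAZ-CAMTA1 (adjusted p = 0.0857) and -1.07 ± 0.46 with YAP-TFE3 (adjusted p = 0.133). Both passed the threshold without EV replicate 2 (adjusted p = 0.0185 and 0.0319) and without the filter on low counts (0.00157 and 0.00405). Under every other alternative both stayed uncalled. Against the hyperactive proteins both fusion proteins had less Ccn5, with -1.71 ± 0.47 for TAZ-CAMTA1 over TAZ4SA (adjusted p = 0.00411) and -1.62 ± 0.47 for YAP-TFE3 over YAP5SA (adjusted p = 0.00394), and in both contrasts the libraries did not overlap. Between the fusion proteins the difference was -0.07 (95% interval -1.03 to 0.89), and between the hyperactive proteins it was 0.02 (-0.92 to 0.96).

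For the hyperactive proteins and TFE3, the Ccn5 intervals against EV included 0. TAZ4SA gave 0.57 ± 0.46 (adjusted p = 0.295), YAP5SA 0.55 ± 0.46 (adjusted p = 0.283) and TFE3 -0.44 ± 0.46 (adjusted p = 0.762). EVsub over EV gave 1.23 ± 0.46 (adjusted p = 0.0581) and passed without EVsub replicate 3 (1.63, adjusted p = 0.0071), without EVsub replicate 1 (adjusted p = 0.0420) and without the filter on low counts (0.000375), but it was 0.15 without EVsub replicate 2. CAMTA1 over EVsub gave -1.61 ± 0.46 (adjusted p = 0.0690) and passed without EVsub replicate 3 (-2.01, adjusted p = 0.0234), without EVsub replicate 1 (adjusted p = 0.0292), without the filter on low counts (2.37e-05) and with DESeq2 (0.0377), but it was -0.53 without EVsub replicate 2. By mean level the order was EVsub, TAZ4SA, YAP5SA, EV, CAMTA1, TFE3, YAP-TFE3 and TAZ-CAMTA1, and of the neighbours only TFE3 and YAP-TFE3 did not overlap.

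Counted over the family, the calls can be set against the share of all tested genes called in the same direction. With TAZ4SA, 2 of the 5 genes rose and 1 fell, where 31.1% of all genes rose and 26.4% fell. With YAP5SA, 2 rose and 2 fell, where 36.3% of all genes rose and 34.9% fell. In TAZ-CAMTA1 1 gene rose and 0 fell, against 12.5% and 8.98% of all genes, and in YAP-TFE3 2 rose and 0 fell, against 10.6% and 4.74%. TFE3 had 1 member called higher and 0 lower, with a background of 2.36% and 1.02%. In EVsub 2 members rose and 1 fell against EV, with a background of 12.5% and 9.59%. These comparisons with EV share their control libraries.

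Calls of 0 were set beside less strict counts. For the fusion proteins and TFE3, edgeR called 0 members lower, with 3, 5 and 1 of the 5 genes at an unadjusted p under 0.05 in either direction for TAZ-CAMTA1, YAP-TFE3 and TFE3 in that order, and DESeq2 also called 0 lower in each. For CAMTA1 against EVsub edgeR called 0 members in either direction, where 1.29% of all genes were higher and 0.891% lower. Ccn2 and Ccn5, 2 of the 5, had an unadjusted p under 0.05 there, and DESeq2 called 1 member, Ccn5.

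Between proteins, the largest number of calls fell in the contrast of YAP-TFE3 with YAP5SA. It was the one comparison of the 11 with all members called, Ccn3 and Ccn4 higher and Ccn1, Ccn2 and Ccn5 lower in the fusion, that is 2 higher and 3 lower against 36.4% and 34.5% of all genes. TAZ-CAMTA1 against TAZ4SA had 1 higher (Ccn3) and 2 lower (Ccn2 and Ccn5), against 26.6% and 28.1%. TAZ4SA against YAP5SA had 2 higher (Ccn3 and Ccn4) and 1 lower (Ccn1), against 22.8% and 19.6%. The fusion proteins differed from each other in 1 member, Ccn3, lower in TAZ-CAMTA1, and 0 members were higher in TAZ-CAMTA1, against 6.32% lower and 5.32% higher of all genes. In that last contrast 3 members had an unadjusted p under 0.05, and DESeq2 called 1 lower and 0 higher. With 5 genes a share moves in steps of a whole gene, and a count near the background is no result about the family. The median log2 fold change over the family ran from -1.62 (YAP-TFE3 against YAP5SA) to 1.23 (EVsub against EV) over the 11 comparisons, while that over all genes stayed between -0.03 and 0.05. Both extremes are the value of Ccn5, and a median of 5 genes is no measure of a shared shift. The median size of change over all genes, sign aside, was 0.79 and 0.26 in those comparisons.

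**Figure D4:**
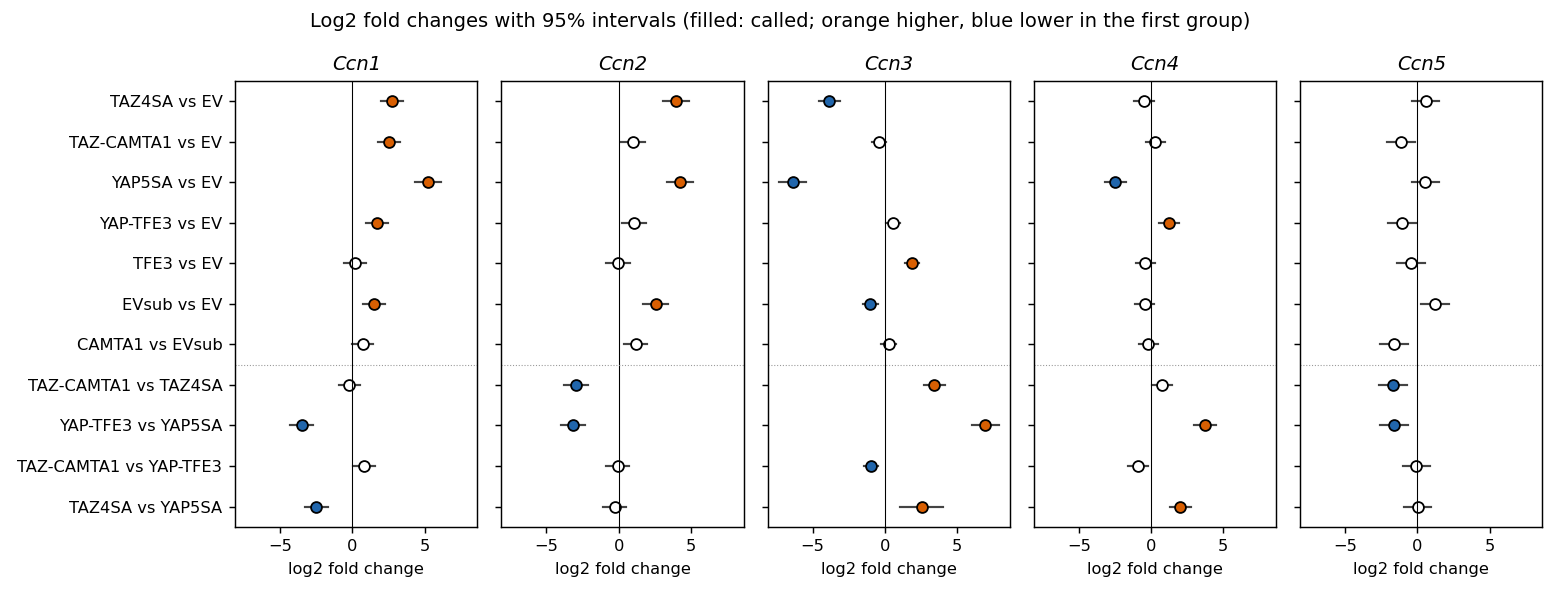
Log2 fold changes with 95% intervals (horizontal axes) for the 5 CCN genes in the 11 comparisons, with contrasts against empty vector above the dotted line and contrasts between proteins below it. Filled points were called at an adjusted p under 0.05, and the fitted values of Ccn3 that involve YAP5SA rest on 3 counts in that group and are not bounds.

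Of 20 listed receptors and binding partners of CCN proteins, 18 were tested. With TAZ4SA 4 were higher and 7 lower than in EV, where 31.1% of all genes were higher and 26.4% lower. With YAP5SA 5 were higher and 9 lower, against 36.3% and 34.9% of all genes. Itga6, the integrin alpha chain that pairs with beta 1 as a receptor of CCN1 and CCN2, had the largest called rise of the well-counted partners with each hyperactive and fusion protein. Its log2 fold change was 1.85 ± 0.17 with TAZ4SA (adjusted p = 8.61e-09), 2.55 ± 0.17 with YAP5SA (adjusted p = 3.33e-11), 1.70 ± 0.17 with TAZ-CAMTA1 (adjusted p = 1.57e-07) and 1.01 ± 0.17 with YAP-TFE3 (adjusted p = 0.000142). Itga6 was also called higher in EVsub than in EV (0.54 ± 0.16, adjusted p = 0.0224), a value named after it was seen. Dcn, which encodes decorin, a proteoglycan bound by CCN4, had the largest fall with both hyperactive proteins, with log2 fold changes of -2.55 ± 0.47 (TAZ4SA, adjusted p = 9.43e-05) and -5.49 ± 0.54 (YAP5SA, adjusted p = 9.72e-09). Its fall was not limited to them, since EVsub had -3.20 ± 0.49 against EV (adjusted p = 9.04e-05), a value named after it was seen.

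With the fusion proteins and their C terminal partners, where fewer genes were called in all, fewer partners were called too. TAZ-CAMTA1 had 4 higher and 2 lower, against 12.5% and 8.98% of all genes, the largest fall being that of Tgfb1, a growth factor that CCN2 binds (-1.13 ± 0.24, adjusted p = 0.00142). YAP-TFE3 had 4 higher and 0 lower by edgeR (10.6% and 4.74% of all genes), 8 at an unadjusted p under 0.05, and 3 lower by DESeq2. TFE3 had 1 higher, Itgb3 (1.33 ± 0.30, adjusted p = 0.0140), and 2 lower, led by Itgb5 (-0.86 ± 0.16, adjusted p = 0.00327), and both encode beta chains that pair with the alpha V integrin. Over all genes 2.36% were higher and 1.02% lower with TFE3. CAMTA1 against EVsub had 2 higher, led by Itga6 (0.63 ± 0.16, adjusted p = 0.0414), and 1 lower, the receptor Notch1 (-2.31 ± 0.59, adjusted p = 0.0394), with 1.29% and 0.891% of all genes. EVsub against EV had 2 higher and 4 lower, against 12.5% and 9.59%. The median log2 fold change of the partners lay between -0.30 (YAP5SA) and 0.09 (CAMTA1) in these comparisons, and that of all genes in the same comparisons between -0.03 and 0.05.

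Of 12 regulators known to act on CCN promoters, all were tested. With TAZ4SA 6 rose and 3 fell, against 31.1% and 26.4% of all genes, and with YAP5SA 6 rose and 2 fell, against 36.3% and 34.9%. In both, Smad4, the shared mediator of TGF-beta signals, had the largest rise (0.91 ± 0.11 and 0.86 ± 0.11, adjusted p = 3.14e-07 and 2.76e-07) and Yap1 had the largest fall (-0.69 ± 0.08 and -0.86 ± 0.08, adjusted p = 5.30e-07 and 8.13e-09). Reads of a construct could enter the counts of Yap1 where the sequences match, and this was not tested. TAZ-CAMTA1 and YAP-TFE3 each had 1 higher, the TEAD factor Tead1 (0.99 ± 0.12, adjusted p = 2.02e-06, and 0.48 ± 0.12, adjusted p = 0.00562), and Tead2 was the largest fall in each (-0.71 ± 0.17, adjusted p = 0.00393, and -0.57 ± 0.17, adjusted p = 0.0219), with 2 and 1 lower in all. Tead1 was also called higher with TAZ4SA (0.69 ± 0.12, adjusted p = 3.21e-05) and YAP5SA (0.75 ± 0.12, adjusted p = 6.18e-06). Tead2 was called higher with these hyperactive proteins (0.45 ± 0.17, adjusted p = 0.0264, and 0.78 ± 0.17, adjusted p = 0.000269). These values were named after they were seen. Over all genes 12.5% were higher and 8.98% lower with TAZ-CAMTA1, and 10.6% and 4.74% with YAP-TFE3. EVsub against EV had 1 higher and 2 lower, against 12.5% and 9.59%. TFE3 and CAMTA1 had 0 called in either direction by edgeR and by DESeq2, with 3 and 4 of the 12 at an unadjusted p under 0.05, against 2.36% higher and 1.02% lower of all genes with TFE3 and 1.29% and 0.891% with CAMTA1.

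The genes most like each member were found by Pearson's r of log2 CPM over the 24 libraries among 11363 well-counted genes, as a description. These points share the 8 groups, so a high r says little beyond a like order of the groups. For Ccn1 they were Gadd45g (r = 0.965), Nomo1 (0.965) and Myo1c (0.964), and for Ccn2 they were Anxa3 (0.938), Bcar1 (0.936) and Arl14ep (0.935). Ccn3 was most like Pianp (0.982), Extl2 (0.980) and Tmed8 (0.979), and Ccn4 was most like Bcl2l2 (0.953), H2-DMa (0.930) and Iqsec2 (0.926). Ccn5 had no gene as close, with Mrm3 (0.839), Nt5c3b (0.821) and Rbck1 (0.807) at the top. With the 8 group means in place of the libraries, 1 of the 3 genes was again among the closest for each member (Myo1c, Arl14ep, Extl2, H2-DMa and Nt5c3b). Within the family, r was 0.78 between Ccn1 and Ccn2, -0.83 between Ccn1 and Ccn3, and 0.71 between Ccn3 and Ccn4.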

How the data were processed

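The 24 NIH 3T3 RNA-Seq libraries fall into 8 groups of 3, as the sample labels give them. For YAP-TFE3 replicate 3 the label's description names another replicate, so its number was read from the title. The authors deposited raw counts of reads per Ensembl gene, without normalization, from stranded paired-end libraries of polyadenylated RNA aligned with Hisat2 to mm10. The submitters' processing notes name bcl2fastq. The study's methods name Salmon and tximport for gene-level counts. Whether the deposited whole-number counts were made that way, and how strand was treated, is not given in the sources used here. Symbols, coordinates and exon lengths came from the GENCODE annotation of GRCm38 and promoters from a RefSeq extract in which 1 of the 5 genes, Ccn1, was matched.

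Genes averaging 5 counts or more over the libraries (14361) were tested for differential expression by the quasi-likelihood F-test of edgeR 4.0.16, run under R 4.3.3, after TMM normalization. All libraries entered one fit with a coefficient per group. A gene was called where its p, adjusted by Benjamini-Hochberg over all genes tested, was under 0.05. Intervals cover 95%. Ccn3 in YAP5SA, with at most 2 counts in a library, was also given as a ratio of summed counts with an exact binomial interval, which covers counting error only. CPM used TMM factors and log2 CPM a prior count of 2. The fit was tested on simulated counts. Partner and regulator lists were drawn up from general knowledge, and the members and lists were chosen with earlier results of these data known. All members were named, and in each list the largest called rise and fall with each protein against its empty vector among genes averaging 50 counts or more, together with the 3 genes most like each member.

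The alternatives were DESeq2 1.42.0, its size factors in edgeR, a fit of all 24737 genes with any count, a fit of the 11461 genes with 10 or more counts throughout, a block for the replicate number, separate fits of each pair of groups, fits that left out one library each and, for levels, plain library totals. Libraries of a group all differed by more than sampling noise. Figures were drawn with matplotlib 3.10.9, numpy 2.4.6 and pandas 2.3.3 under Python 3.11.15.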

Additional observations from a re-analysis of the deposited data

How the results depend on the processing

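Of 649 log2 fold changes of single CCN genes recomputed under an alternative, 606 kept their direction and their side of the threshold, 27 were newly called, 6 lost their call and 10 turned in sign. All 10 that turned came from leaving out a library and had not been called. Levels in YAP5SA depended on the scaling. With plain library totals its libraries had 2031, 1337 and 1815 CPM of Ccn1, in place of 2461, 1731 and 2191 CPM with TMM. They still lay above the libraries of all other groups.

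Without the filter on low counts the number of CCN genes called became 3 for TAZ-CAMTA1 against EV, 4 for YAP-TFE3 against EV, 2 for CAMTA1 against EVsub and 3 for TAZ-CAMTA1 against YAP-TFE3. With at least 10 counts in every library it was 0 for TFE3 against EV and 0 for TAZ-CAMTA1 against YAP-TFE3, because Ccn3 was not among the genes tested. Fits of the 2 groups alone called 2 members for TAZ-CAMTA1 against EV and 3 for TAZ-CAMTA1 against YAP-TFE3, and over all genes they called 1512 (TFE3 against EV), 1683 (EVsub against EV), 22 (CAMTA1 against EVsub), 2572 (TAZ-CAMTA1 against YAP-TFE3) and 2910 (TAZ4SA against YAP5SA). For CAMTA1 against EVsub, DESeq2 called 1 member and 636 genes, and edgeR without the filter called 674 genes. The main counts over all genes for these comparisons were 485, 3173, 313, 1671 and 6087 in the order of the fits of 2 groups. For TAZ-CAMTA1 against EV the main fit called 3088 genes, with a like number without the filter and more in the fit of 2 groups. Without the filter, the log2 fold changes of the added CCN calls hardly moved while their adjusted p fell. Ccn2 with TAZ-CAMTA1 against EV went from 0.988 to 0.995, and its adjusted p from 0.0781 to 0.00162. The adjusted p of Ccn1 there, called in both fits, went from 4.21e-05 to 1.98e-14. These added calls are thus not larger changes. The cause of these shifts was not tested unless stated.

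Leaving out 1 library at a time, the members called ranged from 1 to 2 for TAZ-CAMTA1 and from 1 to 3 for YAP-TFE3 against EV, from 0 to 2 for CAMTA1 against EVsub and from 0 to 1 for TAZ-CAMTA1 against YAP-TFE3. The genes called ranged from 2010 to 3198 (TAZ-CAMTA1), 1133 to 2266 (YAP-TFE3), 192 to 286 (TFE3) and 1971 to 3668 (EVsub) against EV, from 72 to 710 for CAMTA1 against EVsub and from 835 to 1549 for TAZ-CAMTA1 against YAP-TFE3. The log2 fold changes that turned in sign ranged from -0.18 to 0.038 for Ccn2 with TFE3 against EV, from -0.32 to 0.025 for Ccn4 with CAMTA1 against EVsub, from -0.45 to 0.023 for Ccn1 in TAZ-CAMTA1 against TAZ4SA, from -0.18 to 0.025 for Ccn2 and from -0.35 to 0.16 for Ccn5 in TAZ-CAMTA1 against YAP-TFE3, and from -0.091 to 0.17 for Ccn5 in TAZ4SA against YAP5SA.

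With the replicate number as a block, no call of a CCN gene changed, and the genes called were 8161 for TAZ4SA, 3000 for TAZ-CAMTA1, 10148 for YAP5SA, 2170 for YAP-TFE3 and 455 for TFE3 against EV. The labels give no shared origin to libraries with the same number. In no comparison did all same-numbered libraries deviate together (correlations of their deviations ran from -0.21 to 0.41), so the block was not used for pairing. The highest, 0.41 for replicate 3 and 0.25 for replicate 1, were in CAMTA1 against EVsub, where replicate 2 gave -0.0025. A shared origin there was not tested. With the block that comparison had 301 genes called, against 313 in the main fit, and 0 CCN genes. With 3 libraries in a group the intervals of Ccn5 spanned about 2 log2 units, and Ccn3 in YAP5SA was at the limit of the depth.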
